A study of Homo sapiens with 4 samples.

Results

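Genes of the PPAR and LXR nuclear receptor pathways and of fatty acid metabolism were measured on 4 Clariom S arrays in THP-1, a line of human monocytic leukaemia cells. The list held 33 genes in 6 roles: receptors, uptake and binding, oxidation, storage and hydrolysis, efflux and lipoproteins, and lipogenesis. Probe sets were matched through the platform annotation by gene symbol, and 28 of the 33 were found among 17687 measured genes, each with 1 probe set. RXRA, NR1H2, MYLIP, DGAT1 and FADS1 were not analysed here. The groups were a mimic labelled let-7d-5p, a miR-27b-3p mimic, a miR-151a-5p mimic and, set against them, a negative control mimic, each with 1 array. A mimic is a synthetic double-stranded RNA that acts as a mature microRNA. All cells, the control included, had first been kept for 2 days with 100 ng/ml PMA, a phorbol ester that makes THP-1 cells macrophage-like, and received the mimic in a cationic lipid for 24 h. The title of the let-7 array reads let-7d-5p while its treatment and design texts read let-7a-5p, so that the mimic it carries is not settled. No source used here says whether an array holds 1 culture or pooled cultures.

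PPARs and LXRs are nuclear receptors that bind DNA together with RXR and are switched on by lipids: PPARs by fatty acids and their derivatives, LXRs by oxysterols. In macrophages, PPAR gamma is known for raising lipid uptake and storage, and LXR for raising cholesterol efflux and, through SREBP-1, the synthesis of fatty acids. MicroRNAs pair through their seed, bases 2 to 8 from the 5′ end, with sites in messenger RNAs and usually lower them. The miR-27 family is known to repress PPARG in adipocytes.

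The mature sequences are shown because the seed largely decides which messages a mimic can pair with, and because the labels of the let-7 array disagree. They are from RefSeq (GRCh38.p14), with the seed in capitals. Mature miR-27b-3p is encoded at chr9:95085505-95085525 and let-7d-5p at chr9:94178841-94178862, and let-7a-5p comes from 3 loci, of which that at chr9:94175962-94175983 is given, all on the plus strand.
hsa-miR-27b-3p: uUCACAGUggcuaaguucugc
hsa-let-7d-5p: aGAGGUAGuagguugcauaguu
hsa-let-7a-5p: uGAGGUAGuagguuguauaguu
The let-7d-5p and let-7a-5p sequences differ at 2 of 22 positions and have the same seed, GAGGUAG. This holds for the 2 names in the labels only. The study's paper names let-7a-5p and let-7d-3p among its mimics, and not let-7d-5p. The seed of miR-27b-3p, UCACAGU, is another one.

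Values are log2 signals per probe set, in which a step of 1 is a doubling, and levels of different genes are not set against each other because each probe set binds with its own strength. A background floor of 5.34 was taken from the 95th percentile of 348 olfactory receptor genes. By their mean over the arrays 26 of the 28 genes lay above it, and ANGPTL4 and ELOVL6 lay below. A difference is the mimic array minus the control array and counts as called from 1.5-fold, or 0.585 on the log2 scale. With 1 array per group there was no replicate and no test, so a difference can be compared only with the spread of all genes. Among genes above the floor that spread was a standard deviation of 0.29 on the array labelled let-7d-5p, 0.32 with miR-27b-3p and 0.31 with miR-151a-5p. The 3 comparisons share the control array, so they are not independent of each other.

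The labelled cell type was checked first. Of 13 measured macrophage and monocyte markers 12 lay above the floor, among them CSF1R, CD68 and TYROBP, and MRC1 lay below it on all 4 arrays, between 5.01 and 5.20. Of 6 adipocyte markers, including ADIPOQ, LEP and PLIN1, 0 lay above the floor by their mean, and of 5 hepatocyte markers APOA1 alone did. A label calls the line lymphocyte-like, and of 5 T and B cell markers 2 lay above the floor. So did 2 of 5 epithelial markers (KRT8 and KRT19) and 3 of 5 fibroblast and endothelial markers (COL1A2, PECAM1 and VWF). The lists of other cell types were thus not all below the floor. The median difference of the macrophage markers was 0.01 on the array labelled let-7d-5p, 0.01 with miR-27b-3p and -0.03 with miR-151a-5p. CD163, a scavenger receptor of macrophages, was the 1 marker of that list past 1.5-fold, at 11.42 on the array labelled let-7d-5p, against 10.68 on the control array. In such bulk RNA fewer cells of a type and less RNA per cell cannot be told apart.

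Across the 28 genes the miR-27b-3p array was the low one and the array labelled let-7d-5p the high one. The genes were chosen with earlier results of these data known, so their contrast with all genes may partly reflect that choice. On the miR-27b-3p array 19 genes were below the control, 8 were above it and 1 was equal, with a median difference of -0.17, whereas 48.4% of all genes were below the control and 50.3% above it, and their median was 0.01. On the array labelled let-7d-5p 10 genes were below and 18 above, with a median of 0.12, and of all genes 49.3% were below and 49.2% above, with a median of 0.00. With miR-151a-5p 14 were below and 13 above (median -0.01), and of all genes 51% were below and 47.3% above. The shifts were small, and few single genes passed 1.5-fold. On the miR-27b-3p array 2 of 28 genes were at least 1.5-fold lower, which is 7.14% against 4.7% of all genes, and 0 were at least 1.5-fold higher, against 5.07% of all genes. On the other 2 mimic arrays 0 of the 28 passed that size in either direction; of all genes 3.56% were lower and 4.42% higher on the array labelled let-7d-5p, and 3.57% and 5.29% on the miR-151a-5p array. At 2-fold 0 of the 28 were called on any mimic array, whereas of all genes 0.407% were lower and 0.588% higher on the array labelled let-7d-5p, 0.503% and 0.605% with miR-27b-3p, and 0.328% and 0.972% with miR-151a-5p. At 3-fold, the ratio the study used, 0 of the 28 were called either, and of all genes 0.00565% were lower and 0.0226% higher on the array labelled let-7d-5p, 0.017% and 0.0396% with miR-27b-3p, and 0.0226% in each direction with miR-151a-5p. Among genes above the floor the 1.5-fold shares were smaller: 2.88% lower and 2.69% higher on the array labelled let-7d-5p, 4.6% and 3.2% with miR-27b-3p, and 2.79% and 3.94% with miR-151a-5p. Over the 4 arrays 4 of the 28 genes (14.3%) had a range of at least 1.5-fold, namely PPARG, PDK4, LPL and ELOVL6, against 29% of all genes. Of the 28 genes 26 lay above the floor, as did 11615 of all 17687, and dim genes vary more: with miR-27b-3p the standard deviation of the differences was 0.39 for genes with a mean between the floor and 8, and 0.18 for those with a mean above 14.

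**Figure D1:**
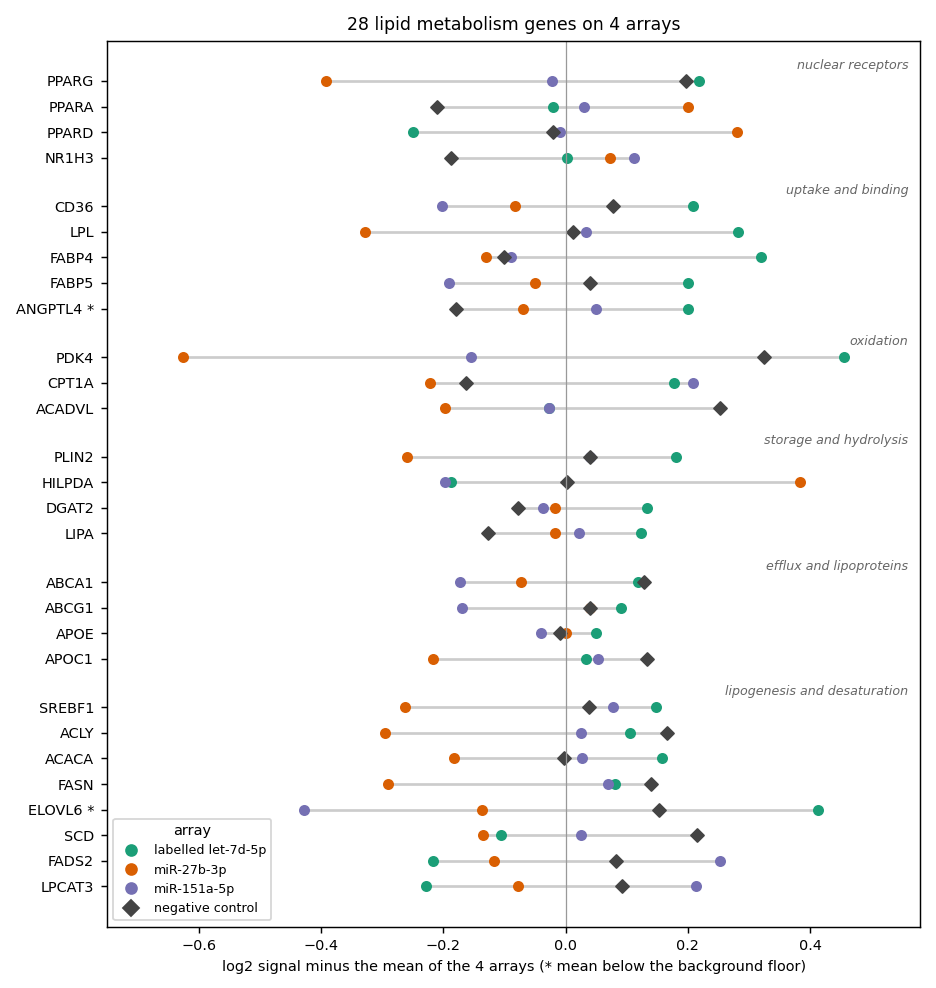
Signal of the 28 genes on each of the 4 arrays, plotted as the log2 signal minus the mean of the 4 arrays and grouped by role. Each point is 1 array and the grey line spans the 4 values; points of ACADVL (array labelled let-7d-5p and miR-151a-5p) and of PLIN2 (miR-151a-5p and control) coincide. The miR-27b-3p points lie leftmost for 13 genes, PDK4 farthest, and rightmost for PPARA, PPARD and HILPDA.

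The receptors did not differ in 1 direction. PPARG, the receptor of lipid uptake and storage, had signals of 11.99 on the array labelled let-7d-5p, 11.38 with miR-27b-3p and 11.75 with miR-151a-5p, against 11.97 on the control array. The miR-27b-3p array was the lowest and the array labelled let-7d-5p stood at the control. PPARG was 1.51-fold lower with miR-27b-3p than in the control (-0.59), just past the 1.5-fold limit, and 4.6% of the genes above the floor were as low or lower. It was no longer called with a pseudocount of 32 (-0.58), with renewed quantile normalization (-0.57) or with the other 2 mimic arrays averaged as the reference (-0.49). Against the miR-151a-5p array the difference was -0.37 and against the array labelled let-7d-5p it was -0.61.

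The other receptors lay on the opposite side on the miR-27b-3p array. PPARA, which drives fatty acid oxidation, had signals of 7.54 on the array labelled let-7d-5p, 7.76 with miR-27b-3p and 7.59 with miR-151a-5p, against 7.35 on the control array. PPARD, the widely expressed member of the family, had 10.60, 11.13 and 10.84 on the mimic arrays in the same order, against 10.83 on the control array. NR1H3, which encodes LXR alpha, had 7.30, 7.37 and 7.41, against 7.11 on the control array. PPARA and PPARD were highest with miR-27b-3p, at 0.41 and 0.30 above the control, and PPARA and NR1H3 were lowest on the control array. None of the differences of these 3 receptors from the control reached 1.5-fold.

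PDK4, the kinase that shuts off pyruvate dehydrogenase when fatty acids are burned and a classical PPAR target, differed most of the 28 genes. Its signals were 7.19 on the array labelled let-7d-5p, 6.11 with miR-27b-3p and 6.58 with miR-151a-5p, against 7.06 on the control array. All 4 values were above the floor, and both the miR-27b-3p and the miR-151a-5p value lay below the other pair. With miR-27b-3p PDK4 was 1.93-fold lower than in the control (-0.95), which was reached or passed by 0.594% of the genes above the floor. That share is not matched for signal. PDK4 had a mean of 6.74, and genes between the floor and 8 had a standard deviation of 0.39 with miR-27b-3p. Genes between 11 and 14, the range of PPARG, had 0.25. With miR-151a-5p PDK4 was 1.39-fold lower (-0.48). Against the array labelled let-7d-5p the miR-27b-3p value was 2.11-fold lower (-1.08). CPT1A, the gatekeeper of fatty acid entry into mitochondria, had 8.99 and 9.02 on the array labelled let-7d-5p and the miR-151a-5p array, and 8.59 on the miR-27b-3p array, against 8.65 on the control array. The pair of higher values stood 0.34 and 0.37 above the control. ACADVL, which starts the oxidation of very long chains, was highest on the control array, and its differences were -0.28, -0.45 and -0.28.

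The 5 members of fatty acid uptake and binding were all above the control on the array labelled let-7d-5p. Of all genes 49.2% were above it. The 5 had a median of 0.27 and a range from 0.13 to 0.42, and ANGPTL4 among them was below the floor. All 5 were also higher there than on either of the other mimic arrays. Of all genes 49% were lower with miR-27b-3p than on the array labelled let-7d-5p, and 52% were lower with miR-151a-5p. Of 14 other genes of uptake, binding and activation 10 were above the control on that array, with a median of 0.07. LPL, the lipase that releases fatty acids from lipoproteins, had signals of 15.58 on the array labelled let-7d-5p, 14.97 with miR-27b-3p and 15.33 with miR-151a-5p, against 15.31 on the control array. The miR-151a-5p and control values were alike, and the others lay on either side of them, 0.27 above and 0.34 below the control. The miR-27b-3p value was 1.53-fold lower than that on the array labelled let-7d-5p (-0.61). FABP4, a fatty acid binding protein and PPAR gamma target, had 15.38 on the array labelled let-7d-5p, whereas the other mimic arrays had 14.93 and 14.97, against 14.96 on the control array. The difference of 0.42 was the highest of any of the 28 genes on that array, and 6.81% of the genes above the floor were as high or higher. CD36, a fatty acid and oxidized lipoprotein receptor, and FABP5 were both highest on that array and lowest with miR-151a-5p, at -0.28 and -0.23 from the control. ANGPTL4, an inhibitor of LPL, was below the floor on all 4 arrays, between 3.19 and 3.57, so that its differences have no reliable size. The macrophage marker CD163 was higher too on the array labelled let-7d-5p, by 0.74, while 6 of the 13 macrophage markers were lower and 7 higher there, and the part of cell state in these differences was not tested.

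The 8 lipogenic and desaturation members were all below the control on the miR-27b-3p array, as were 48.4% of all genes. They lay between -0.46 and -0.17, with a median of -0.29, and ELOVL6 among them was below the floor. On the array labelled let-7d-5p 5 of 8 were below the control (median -0.06), against 49.3% of all genes. On the miR-151a-5p array 4 of 8 were (median -0.02), against 51%. Of 24 other lipogenesis and elongation genes 14 were below the control with miR-27b-3p (median -0.03). ACLY, which makes cytosolic acetyl-CoA, had signals of 13.90 and 13.82 on the array labelled let-7d-5p and the miR-151a-5p array and 13.50 with miR-27b-3p, against 13.96 on the control array, and was 1.38-fold lower with miR-27b-3p. FASN, the fatty acid synthase, had 11.90 and 11.89 on the array labelled let-7d-5p and the miR-151a-5p array and 11.53 with miR-27b-3p, against 11.96 on the control array. In both genes 3 arrays lay close together and the miR-27b-3p array stood apart. SREBF1, the gene of SREBP-1 and itself an LXR target, had the same shape, at 8.86 and 8.79 on those 2 mimic arrays and 8.45 with miR-27b-3p, against 8.75 in the control. ACACA, the acetyl-CoA carboxylase of the same route, was likewise lowest with miR-27b-3p, at -0.18 from the control and at -0.34 from the array labelled let-7d-5p. None of these passed 1.5-fold.

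The desaturation and remodelling genes ordered the arrays in another way. SCD, the stearoyl-CoA desaturase, was highest on the control array, with differences of -0.32 on the array labelled let-7d-5p, -0.35 with miR-27b-3p and -0.19 with miR-151a-5p. FADS2, a desaturase of polyunsaturated fatty acids, and LPCAT3, which places such chains in phospholipids and is an LXR target, were lowest on the array labelled let-7d-5p (-0.30 and -0.32) and highest with miR-151a-5p (0.17 and 0.12). Between the miR-151a-5p array and that labelled let-7d-5p these 2 genes differed by 0.47 and 0.44. ELOVL6, an elongase, had signals of 5.12 on the array labelled let-7d-5p, 4.57 with miR-27b-3p and 4.28 with miR-151a-5p, against 4.86 on the control array, all of them below the floor, so that its difference of -0.58 with miR-151a-5p is uncertain.

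Storage and efflux genes did not differ in 1 direction, and none passed 1.5-fold from the control. PLIN2, the coat protein of lipid droplets in macrophages, had signals of 15.91 on the array labelled let-7d-5p, 15.47 with miR-27b-3p and 15.77 on both the miR-151a-5p and the control array. HILPDA, an inhibitor of triglyceride breakdown, went the other way, with 6.25, 6.82 and 6.24 on the 3 mimic arrays in that order, against 6.44 on the control array. It was 0.38 above the control with miR-27b-3p, and lay 0.57 and 0.58 above the array labelled let-7d-5p and the miR-151a-5p array, just under 1.5-fold. DGAT2, which makes triglycerides, and LIPA, the lysosomal acid lipase, were lowest on the control array and at most 0.25 above it. Among efflux genes ABCA1, the cholesterol exporter, had 12.22, 12.03 and 11.93 on the 3 mimic arrays, against 12.23 on the control array, so that its largest difference was -0.30, with miR-151a-5p. ABCG1, its partner exporter, was also lowest with miR-151a-5p (-0.21), and equal to the control with miR-27b-3p. APOE, the lipoprotein ligand secreted by macrophages, had a range of 0.09 over the 4 arrays, the narrowest of the 28 genes, and its neighbour APOC1 was lowest with miR-27b-3p (-0.35). The 4 efflux and lipoprotein genes were all below the control with miR-151a-5p (median -0.14), as were 51% of all genes. APOE (-0.03) and APOC1 (-0.08) lay close to the control there.

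**Figure D2:**
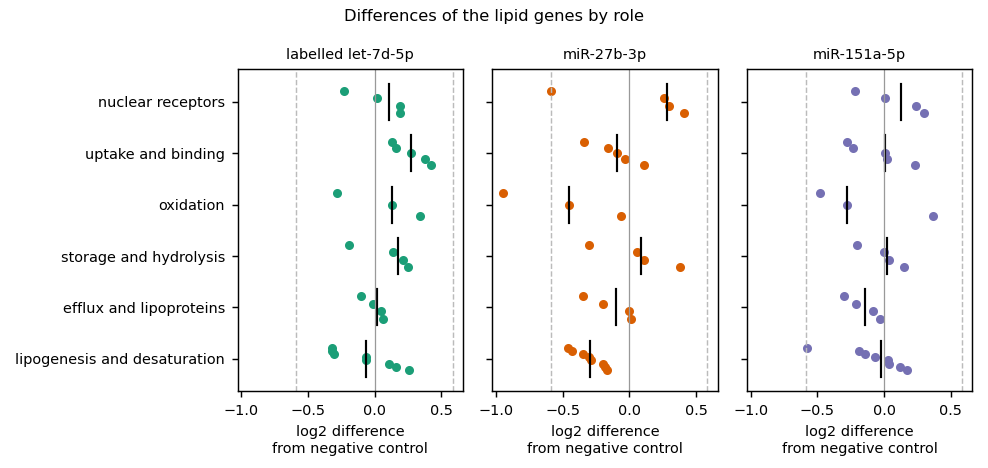
Log2 differences of the 28 genes from the negative control array, in rows by role and in 1 panel for each mimic array. Points are genes, black bars are medians of the role and dashed lines mark 1.5-fold. All 8 lipogenic genes lie left of 0 with miR-27b-3p, against 48.4% of all genes. All 5 uptake genes lie right of 0 on the array labelled let-7d-5p, against 49.2% of all genes.

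Ranking the 4 arrays within each gene gives a view that does not rest on the control alone. The miR-27b-3p array alone was the lowest for 13 of the 28 genes (46.4%), against 25.4% of all genes. These were PPARG, PDK4, FABP4, PLIN2, CPT1A, ACADVL, SREBF1, FASN, SCD, ACACA, ACLY, LPL and APOC1. The array labelled let-7d-5p was the lowest for 3 (10.7%, against 22.4% of all genes), the miR-151a-5p array for 7 (25.0%, against 27%) and the control array for 5 (17.9%, against 22.7%). The array labelled let-7d-5p was the highest of the 4 for 15 genes (53.6%), against 24% of all genes. The miR-27b-3p array was the highest for 3 (10.7%, against 27.6%), namely PPARA, PPARD and HILPDA, the miR-151a-5p array for 4 (14.3%, against 22.7%) and the control array for 6 (21.4%, against 23%). Without the let-7 array, whose mimic is not settled, miR-27b-3p was the lowest of 3 for 15 genes, against 32.7% of all genes. Directly between mimic arrays, 22 of the 28 genes were lower with miR-27b-3p than on the array labelled let-7d-5p, with a median of -0.25, against 49% of all genes. Against the miR-151a-5p array 18 were lower with miR-27b-3p, with a median of -0.14, against 46.6% of all genes. At 1.5-fold 3 genes, PPARG, PDK4 and LPL, were lower with miR-27b-3p than on the array labelled let-7d-5p and 0 were higher, against 4.64% of all genes in each direction. Likewise 0 genes were past it against miR-151a-5p, for which 6.18% of all genes were lower and 5.22% higher.

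**Figure D3:**
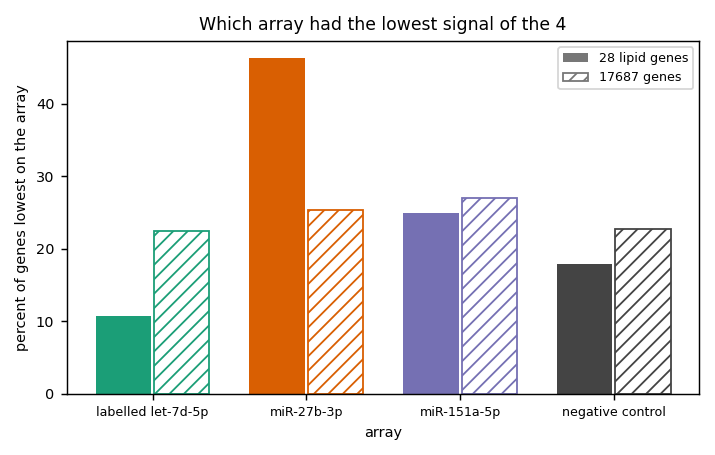
Share of genes, in percent, for which each array alone had the lowest signal of the 4, as filled bars for the 28 lipid genes and hatched bars for all 17687 genes. The filled bar of the miR-27b-3p array reaches 46.4%, beside a hatched bar of 25.4%.

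With miR-27b-3p the direction differed between the dimmest members and the others, so the members were also described in 4 ranges of mean signal. On that array the 4 members between the floor and 8 had a median of 0.32, with 3 of them above the control. Their standard deviation was 0.65. The 7 members between 8 and 11 had -0.17 (5 below), the 9 between 11 and 14 had -0.35 (7 below) and the 6 above 14 had -0.12 (5 below). All genes had a median of -0.01 in each range. Between the floor and 8, 1823 of all 3774 genes were above the control. In the other ranges 2181 of 4274, 1501 of 2966 and 313 of 601 genes were below it. The dimmest range held PPARA, NR1H3 and HILPDA, which were above the control, and PDK4, which was below it. The medians on the array labelled let-7d-5p were 0.16, 0.05, -0.06 and 0.21 from the dimmest to the brightest range. There 3 of 4, 4 of 7, 3 of 9 and 6 of 6 members were above the control. Of all genes 1733 of 3774, 2071 of 4274, 1416 of 2966 and 292 of 601 were above it in that order. The all-gene medians lay between -0.03 and 0.00. The 6 brightest members were CD36, LPL, FABP4, FABP5, PLIN2 and LIPA. With miR-151a-5p the medians were 0.02, 0.03, -0.08 and 0.01 in that order.

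Other genes of the same pathways were read in 7 lists that share no gene with the 28. Of 138 listed genes 117 were measured and 97 lay above the floor. Their median difference was 0.01 on the array labelled let-7d-5p, -0.03 with miR-27b-3p and -0.05 with miR-151a-5p. The 28 genes had 0.12, -0.17 and -0.01 in that order. Their shifts on the let-7 and miR-27b-3p arrays were thus not shared by the 117 genes as a set. With miR-27b-3p 63 of the 117 were below the control and 54 above, against 48.4% and 50.3% of all genes. At 1.5-fold 3 were lower (2.56%, against 3.56% of all genes) and 2 higher (1.71%, against 4.42%) on the array labelled let-7d-5p. With miR-27b-3p 5 were lower (4.27%, against 4.7%) and 1 was higher (0.855%, against 5.07%), and with miR-151a-5p 3 were lower (2.56%, against 3.57%) and 4 higher (3.42%, against 5.29%). By list, 14 of 20 beta oxidation genes were below the control with miR-27b-3p (median -0.08), against 48.4% of all genes. Nearer to that share were 14 of 24 of lipogenesis and elongation (-0.03) and 14 of 26 of glycerolipids and droplets (-0.05). So were 7 of 14 of uptake and activation (-0.02). Of the receptor partners 4 of 12 were below the control (0.08). The 6 measured genes of the pyruvate dehydrogenase switch, PDK1, PDK2 and PDK3 among them, had a median of -0.10 with miR-27b-3p and none past 1.5-fold, and the 15 of cholesterol efflux and lipoproteins had 0.06.

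The 6 genes of these lists past 1.5-fold with miR-27b-3p passed it on no other mimic array. GPAM, the mitochondrial enzyme that begins glycerolipid synthesis, had signals of 6.62 on the array labelled let-7d-5p, 5.56 with miR-27b-3p and 6.50 with miR-151a-5p, against 6.47 on the control array. SLC27A4, a fatty acid transporter that also activates its substrates, had 9.49, 8.61 and 9.37 on the mimic arrays in that order, against 9.40 on the control array. ABHD5, the activator of the triglyceride lipase PNPLA2, had 7.80, 7.41 and 7.85, against 8.01. In each the miR-27b-3p array was the lowest, with differences of -0.91, -0.79 and -0.60 from the control. ACACB, the carboxylase at the mitochondrial surface, was at 5.43 on the control array and below the floor with miR-27b-3p (-0.71). NRIP1, a corepressor of nuclear receptors, was the 1 gene past 1.5-fold upward, at 9.84, 10.57 and 9.66 on the mimic arrays, against 9.57 on the control array. With miR-27b-3p it was 0.73 and 0.91 higher than on the array labelled let-7d-5p and the miR-151a-5p array.

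Other genes differed on several mimic arrays or on another one. The carnitine shuttle genes CPT2 and SLC25A20 were highest on the control array: CPT2 had 11.39, 11.46 and 11.49 on the 3 mimic arrays, against 12.03, and SLC25A20, the last of the 6 genes, had 9.33, 9.02 and 9.34, against 9.86. The mimic arrays lay within 0.10 of each other for CPT2. With 1 array per group, a high control value and a lower level shared by the mimics cannot be told apart. FADS3 and GPAT3, an enzyme of triglyceride synthesis, were also highest in the control and lowest on the array labelled let-7d-5p, at -0.65 and -1.02. CIDEB, a lipid droplet protein, was lowest on the control array and 0.79 higher with miR-151a-5p. VLDLR, a receptor for triglyceride-rich lipoproteins, had 8.64 on the array labelled let-7d-5p and 8.56 on the miR-151a-5p array, and 7.76 with miR-27b-3p, against 7.72 on the control array. With miR-151a-5p SLC27A2, another fatty acid transporter, was 0.72 higher than the control, and FABP3 and the coactivator PPARGC1B were lower, at -0.68 and -0.81.

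**Figure D4:**
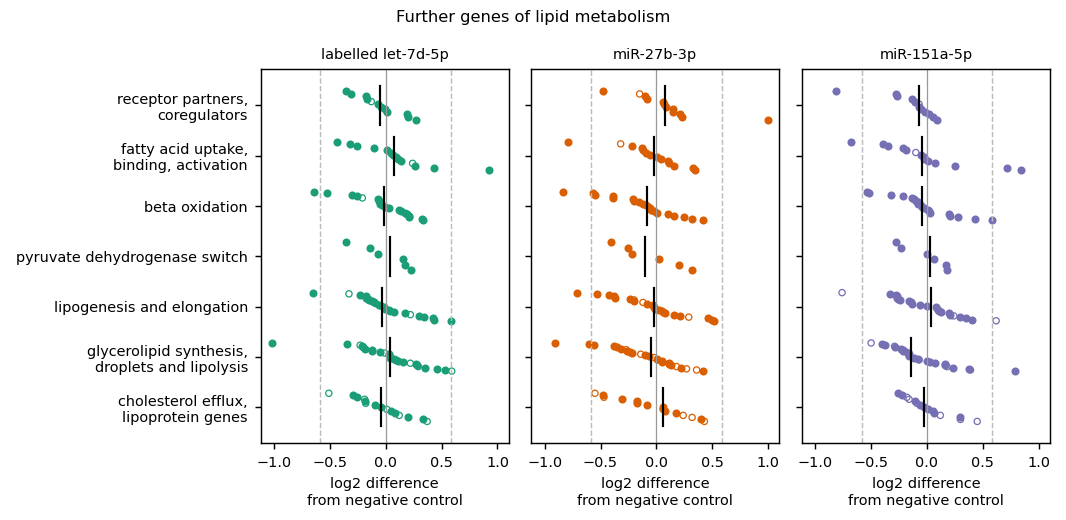
Log2 differences of 117 further lipid metabolism genes from the negative control array, in rows by list and in 1 panel for each mimic array. Filled points are genes with a mean above the background floor, open points those below, black bars list medians and dashed lines 1.5-fold; the list medians lie between -0.14 and 0.08, and NRIP1 is the far right point of the miR-27b-3p panel.

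Promoters of the 3 members that were lowest with miR-27b-3p are shown because they differed most from the control on that array. Windows of 250 bases before the start site are from RefSeq (GRCh38.p14) and were matched by symbol for 21 of the 28 genes. They were searched on both strands for AGGTCA, the half-site of nuclear receptors; for its direct repeats with 1 base between (AGGTCANAGGTCA, called DR1, the PPAR form) and with 4 bases between (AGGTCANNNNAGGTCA, called DR4, the LXR form), both of which contain the half-site; and for CCAAT, the box that binds NF-Y. Capitals mark AGGTCA and CCAAT, or their reverse complements TGACCT and ATTGG. The windows are PDK4 at chr7:95596517-95596766 on the minus strand, PPARG at chr3:12287118-12287367 on the plus strand (1 of 6 windows of that gene, the one with most half-sites) and ACLY at chr17:41918952-41919201 on the minus strand (1 of 2 windows).
PDK4: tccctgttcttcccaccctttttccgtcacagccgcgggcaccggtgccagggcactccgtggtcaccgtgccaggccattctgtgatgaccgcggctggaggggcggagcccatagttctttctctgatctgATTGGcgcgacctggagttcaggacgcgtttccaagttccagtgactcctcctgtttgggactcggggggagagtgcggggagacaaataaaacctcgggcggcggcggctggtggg
PPARG: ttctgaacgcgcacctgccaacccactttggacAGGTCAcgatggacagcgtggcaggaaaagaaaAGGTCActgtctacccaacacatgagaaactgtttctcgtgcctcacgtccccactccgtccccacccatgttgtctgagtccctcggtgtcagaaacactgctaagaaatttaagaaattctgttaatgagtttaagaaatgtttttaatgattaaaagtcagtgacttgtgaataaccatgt
ACLY: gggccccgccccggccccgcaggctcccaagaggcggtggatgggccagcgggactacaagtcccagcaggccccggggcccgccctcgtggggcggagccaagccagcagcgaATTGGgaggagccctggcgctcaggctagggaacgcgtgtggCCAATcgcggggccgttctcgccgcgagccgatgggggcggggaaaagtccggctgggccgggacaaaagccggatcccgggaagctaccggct
The PPARG window held 2 half-sites and that of ACLY 2 CCAAT boxes, and PDK4 had 1 CCAAT box. The 21 genes had 44 windows, and all 27305 genes had 34788, so each of the 21 had on average more room for a match. A half-site was in 4 of the 21 genes (PPARG, NR1H3, ELOVL6 and ACACA), against 14.6% of all genes. By window it was in 6 of the 44, against 12% of all windows. A CCAAT box was in 12 of the 21 genes, against 37% of all genes. By window it was in 16 of the 44, against 32% of all windows. The repeats DR1 and DR4 were in 0 of the 21 genes, and in 0.0115% and 0.0144% of all windows. A match is a run of letters and not a site shown to be bound.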

How the data were processed

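The authors deposited log2 signals per probe set with 2 decimals. RMA and Transcriptome Analysis Console 4.0 stand in the submitters' processing notes; RMA subtracts background, gives all arrays the same distribution and combines the probes of a set. A change that moved every gene alike is therefore not visible. No source used here states a genome build for the probe sets, and their positions are left out. Of 21448 probe sets 17709 had 1 gene symbol, 0 had several and 3739 had none here. Where a gene had several probe sets (20 genes), the highest mean decided which was used. Of the 28 members' symbols 0 differed from those in RefSeq (GRCh38.p14).

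Differences, medians and counts were computed in Python 3.11.15 with numpy 2.4.6 and pandas 2.3.3, without further normalization, and plots were drawn with matplotlib 3.10.9. The counting step was run on simulated data with a much smaller spread than that of the arrays, which checks the code and not the reliability of a call. There were no replicates and hence no tests, and precision is limited by having 1 array per group. Levels on every array are given for the receptors, for members with a range of at least 1.5-fold and for examples of each role chosen after their values were seen; genes of the other lists are named where their mean was above the floor and a mimic array differed by 1.5-fold. The members, lists and the 1.5-fold limit were chosen with earlier results of these data known; the study used 3-fold. The alternatives tried were other folds, a filter at the floor, a pseudocount of 32, renewed quantile normalization, the mean of probe sets, the mean over members and other reference arrays.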

Additional observations from a re-analysis of the deposited data

How the results depend on the processing

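With 1 array per group no replicate could be left out, and no direction of a called value was reversed. Some receptor values that were not called changed sign with the other 2 mimic arrays averaged as reference. On the array labelled let-7d-5p PPARA went from 0.19 to -0.14 and NR1H3 from 0.19 to -0.09. With miR-151a-5p PPARG went from -0.22 to 0.07, PPARA from 0.24 to -0.06 and PPARD from 0.01 to -0.03. No paired analysis was possible because each group holds 1 array and the labels give no replicate numbers. The 2 genes called with miR-27b-3p became 0 at 2-fold and 0 at 3-fold. They became 1 with the pseudocount of 32, 1 with renewed quantile normalization and 1 with the mean of the other 2 mimic arrays as reference. The gene kept in these 3 settings was PDK4, at -0.71, -0.93 and -0.78, whereas PPARG was at -0.58, -0.57 and -0.49. The 0 genes called on the array labelled let-7d-5p became 2 with the mean of the other 2 mimic arrays as reference, namely PDK4 at 0.84 and ELOVL6 at 0.69. The 0 called with miR-151a-5p became 1 with renewed quantile normalization, ELOVL6 at -0.61. The median over the 28 genes stayed between -0.25 and -0.13 for miR-27b-3p over its alternatives, 2 of which, single mimic arrays as reference, were chosen after seeing the data. It lay between 0.085 and 0.188 for the array labelled let-7d-5p and between -0.015 and 0.013 for miR-151a-5p. The mean over the 28 genes in place of the median was 0.06 on the array labelled let-7d-5p, -0.15 with miR-27b-3p and -0.06 with miR-151a-5p. Of 63 recomputed differences of single genes 57 moved by less than the spread of all genes and 6 by more, 5 of them with the other mimic arrays as reference. The log2 signals give no depth, and values under the floor of 5.34 have no reliable size.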
